A study of Mus musculus with 16 samples.

Results

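Endurance training regulators were examined as a group of 10 genes in the mouse gastrocnemius, taken from the tables by their symbols: Ppargc1a, Ppargc1b, Esrra, Nrf1, Tfam, Prkaa2, Sirt1, Slc2a4, Hk2 and Vegfa. They are 10 of the 35415 genes in the count and FPKM tables, and all 10 were among the 14749 genes with enough counts to be tested. PolyA RNA was sequenced from the gastrocnemius of 16 wild type male BALB/c mice, 8 weeks old at purchase, with 4 mice in each group. The C group received saline and stayed on a stationary treadmill, and the E group received saline and ran on the treadmill at a belt speed of 14 m/min in bouts of 60 min, 6 times a week over 4 weeks. The T group was inoculated under the skin of the hind limb with CT26 cells, a colon carcinoma line from the BALB/c strain, and did not run, and the TE group was inoculated and ran. Since not every inoculated TE mouse of the study grew a tumor and the sources do not say which mice were sequenced, the TE group is defined here by inoculation. Library totals lay between 35628211 and 37635741 counts, and the summed level of 12 myofiber markers was 129364 to 156093 CPM (counts scaled to library size) over the libraries, with none of the 12 at 0 in any group.

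As background, contraction raises calcium, cyclic AMP and AMP in a muscle fiber, and the kinases that sense them act on PGC-1α, the coactivator encoded by Ppargc1a. PGC-1α and its relative PGC-1β dock on nuclear receptors such as ERRα and on NRF1, and with them switch on genes of the mitochondrion. Among these is Tfam, which encodes a factor that activates transcription of mitochondrial DNA and packages it. GLUT4 (Slc2a4), hexokinase II (Hk2) and VEGF-A (Vegfa) carry the other side of endurance adaptation, namely glucose uptake, its trapping in the fiber and the growth of capillaries.

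Ppargc1a lies on the minus strand of chromosome 5 (chr5:51611592-51725068, GRCm39) and has 14 annotated transcripts with 9 start sites, spread over 13856 bases. A count per gene adds all of these together, so the values given for Ppargc1a cannot separate the canonical transcript from those of the upstream start. The regions of both starts are shown because Ppargc1a had the largest fitted differences in E vs C and T vs C, and that of Vegfa because its level followed Ppargc1a most closely among the other 9 genes. Each run holds 250 bases before and 50 bases after the start site, 5′ to 3′ on the minus strand of GRCm39 with GENCODE start sites, and capitals mark matches to 5 searched motifs.
Ppargc1a canonical start, chr5:51711215-51711514: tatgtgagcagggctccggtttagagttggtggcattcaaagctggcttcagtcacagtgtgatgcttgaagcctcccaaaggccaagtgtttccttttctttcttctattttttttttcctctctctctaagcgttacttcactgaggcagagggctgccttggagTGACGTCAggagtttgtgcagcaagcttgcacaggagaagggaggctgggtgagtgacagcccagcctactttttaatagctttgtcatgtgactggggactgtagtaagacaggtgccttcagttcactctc
Ppargc1a most upstream start, chr5:51725019-51725318: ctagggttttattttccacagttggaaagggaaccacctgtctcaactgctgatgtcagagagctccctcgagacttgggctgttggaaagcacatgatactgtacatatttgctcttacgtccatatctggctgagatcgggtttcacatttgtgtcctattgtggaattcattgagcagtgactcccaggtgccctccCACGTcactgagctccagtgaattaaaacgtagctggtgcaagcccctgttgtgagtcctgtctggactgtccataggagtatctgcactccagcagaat
Vegfa canonical start, chr17:46343260-46343559: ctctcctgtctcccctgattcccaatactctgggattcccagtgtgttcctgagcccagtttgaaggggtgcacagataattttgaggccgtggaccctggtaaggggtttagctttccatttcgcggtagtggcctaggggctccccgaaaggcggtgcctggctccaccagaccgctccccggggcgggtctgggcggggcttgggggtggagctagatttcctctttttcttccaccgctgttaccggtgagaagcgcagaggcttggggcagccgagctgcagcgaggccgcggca

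The capitals at the canonical Ppargc1a start are the cyclic AMP response element TGACGTCA, which begins 83 bases before the start site and is known as the docking site of CREB. Those at the upstream start are CACGT, the reverse complement of the hypoxia response core ACGTG, 50 bases before the start site. No searched motif was found in the Vegfa window, which says only that these letters are not in this window. The motifs, read on both strands, were TGACGTCA, ACGTG, the ERR element TNAAGGTCA, and the NRF1 element and MEF2 core, which are given by name only. The background was 32851 RefSeq promoter windows of the same length (300 bases, GRCm38.p6), from which chromosome 18 was left out. Among them, TGACGTCA occurred in 1.79%, ACGTG in 19.6%, TNAAGGTCA in 1.28%, the NRF1 element in 4.6% and the MEF2 core in 3.69%. In those RefSeq windows 8 of the 10 genes were found. Ppargc1b lies on chromosome 18 and so was not searched, and Slc2a4 had no window. Of the 8 genes, Ppargc1a, Hk2, Sirt1 and Vegfa held ACGTG, Vegfa at a second start site. The windows of Prkaa2, Nrf1, Tfam and Esrra and that of Vegfa at its first start site held no match to the 5 motifs.

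None of the 10 genes passed an adjusted p of 0.05 by edgeR's quasi-likelihood test in any comparison, against 0.0881% of tested genes for E vs C, 0% for TE vs T and 0.678% for T vs C. For the training difference averaged over both tumor states the share was 0.00678%, for the tumor difference averaged over both training states 1.36%, and for the interaction of the factors 0%. At an unadjusted p under 0.05, 1 of the 10 genes, Ppargc1a, passed in E vs C, T vs C and both averaged differences, a share no higher than the background, since there 14.2%, 14.2%, 10.8% (training) and 14.2% (tumor) of all tested genes did. In TE vs T and in the interaction 0 of the 10 had an unadjusted p under 0.05, against 5.88% and 9.21% of tested genes. The median absolute log2 fold change of the 10 genes was 0.10 for E vs C, 0.07 for TE vs T and 0.08 for T vs C, beside 0.14, 0.10 and 0.13 over all tested genes. E vs C and T vs C use the same 4 C mice, and T vs C and TE vs T the same 4 T mice.

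**Figure D1:**
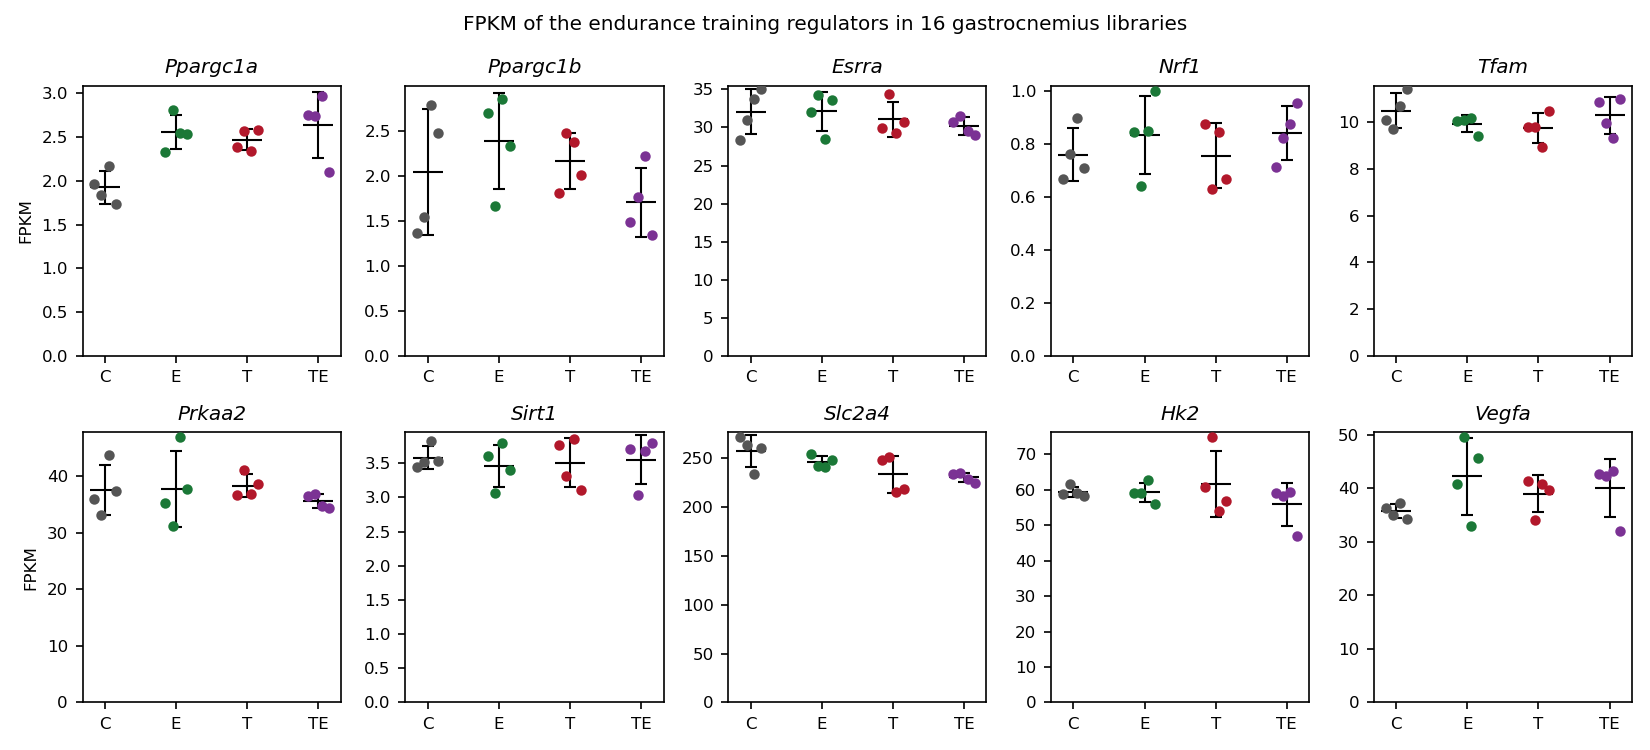
FPKM of each of the 10 genes (vertical axes from 0) in the C, E, T and TE groups, with 1 point for each mouse and bars for the mean ± SD of 4 mice. Ppargc1a is the gene in which the E and T points lie above all C points, and the lowest TE point of Ppargc1a, Hk2 and Vegfa is the same mouse, TE replicate 4.

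Ppargc1a had the largest fitted difference of the 10 genes in E vs C and in T vs C, and it passed the adjusted test in neither. Both comparisons use the same C mice, so they are not independent of each other. Its FPKM (fragments per kilobase of gene length, scaled to library size) was 1.96, 1.83, 2.17 and 1.74 in the 4 C mice and 2.33, 2.81, 2.55 and 2.53 in the 4 E mice. In the T mice it was 2.39, 2.57, 2.35 and 2.58, and in the TE mice 2.76, 2.74, 2.97 and 2.097. Every E and every T mouse was above every C mouse, and 3 of 4 TE mice were too, whereas TE replicate 4 was inside the C range. Group means were 1.93 ± 0.188 (SD, n = 4) in C, 2.56 ± 0.196 in E, 2.47 ± 0.121 in T and 2.64 ± 0.378 in TE, and in the order TE, E, T, C only T and C did not overlap among neighbours. The groups did not overlap, in CPM, for 9.08% of tested genes in E vs C and 6.86% in T vs C (2.58% in TE vs T, where Ppargc1a overlapped).

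In counts, the fitted log2 fold change of Ppargc1a in E vs C was 0.37 (SE 0.105), or 29.4% more, with a 95% interval of 11% to 50.8%. Its unadjusted p was 0.00246, with 1.59% of tested genes lower, and the adjusted p by edgeR's quasi-likelihood test was 0.153. In T vs C the log2 fold change was 0.39 (SE 0.105), or 30.6% more (12.1% to 52.3%), with an unadjusted p of 0.00184 and an adjusted p of 0.1003 by edgeR. The exact permutation test on log2(FPKM + 1), two-sided, gave p = 0.0286 for either comparison, the smallest that 4 against 4 mice allow and not adjusted for the 30 tests of the 10 genes in 3 comparisons. In bulk RNA, a change in the number of cells of a type and a change in RNA per cell cannot be told apart.

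The call for Ppargc1a in T vs C depended on the tool and on a mouse outside the comparison. The adjusted p was 0.0315 with DESeq2 and 0.0368 when TE replicate 4 was left out of the fit, in which all 4 groups share the estimate of spread. In those fits 3.01% and 0.803% of all genes were called in T vs C. Over each library left out in turn, the log2 fold change ranged from 0.34 to 0.43 in T vs C and from 0.32 to 0.42 in E vs C, where the adjusted p of edgeR reached 0.359.

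Between the groups with CT26 cells, the fitted difference of Ppargc1a was smaller and within the spread between mice. In TE vs T the log2 fold change was 0.08 (SE 0.104), with an interval of -9.0% to 23.5% and an adjusted p of 0.961 by edgeR. This value rested on TE replicate 4, without which it was 0.20 (adjusted p = 0.969 by edgeR), and on TE replicate 3, without which it was 0.01. The training difference was smaller by 0.29 on the log2 scale in tumor-bearing than in tumor-free mice (interaction -0.29, SE 0.148, unadjusted p of 0.0686, adjusted p = 0.569 by edgeR's quasi-likelihood test), and without TE replicate 4 the interaction was -0.17. Averaged over the other factor, the log2 difference was 0.23 (SE 0.0739, adjusted p = 0.332 by edgeR) for training and 0.24 (SE 0.0739, adjusted p = 0.128 by edgeR) for the tumor. The latter had an adjusted p of 0.0223 without TE replicate 4, where 1.21% of all tested genes were called.

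TE replicate 4 was also the library with the highest level of lymphocyte markers. The sum of 10 such markers, none of them at 0 in a whole group, was 67.6 CPM in TE replicate 4 and 0.724 to 1.41 CPM in the other TE mice, and it was 1.14 to 25.2 CPM in C, 1.48 to 16.02 CPM in E and 0.801 to 2.34 CPM in T. The same mouse had the highest TE sums of erythroid markers (785 CPM, others 554 to 563), macrophage markers (185 CPM, others 96.3 to 120) and neutrophil markers (19.7 CPM, others 10.9 to 14.7), and the lowest TE sum of myofiber markers (139630 CPM, others 143034 to 155583). Other marker lists also moved with the comparisons in which Ppargc1a differed. In E vs C all 10 adipocyte markers and all 8 fibroblast markers were higher and 0 were called, with sums of 29.1 to 106 CPM in C and 66.4 to 320 CPM in E for adipocytes and of 1083 to 1493 CPM in C and 1583 to 2069 CPM in E for fibroblasts. In T vs C 9 of the 10 adipocyte markers were higher (median log2 fold change 1.02) and all 10 lymphocyte markers lower (median -2.92), with 0 called in either list, and the adipocyte sums were 30.3 to 214 CPM in T and 70.3 to 174 CPM in TE. In T vs C all 10 slow myofiber markers were higher and 0 were called, with sums of 1010 to 2486 CPM in C and 1300 to 3373 CPM in T. In TE vs T all 10 of these were lower and 0 were called, and the TE sums were 1135 to 1457 CPM. Both comparisons use the same 4 T mice, so the 2 directions are not independent. Only T replicate 4 (3373 CPM) had a slow myofiber sum above the C range, and the other T mice were inside it. The 9 neutrophil markers, of which Camp and Retnlg were at 0 in all C mice, summed to 0.907 to 3.99 CPM in C and 8.48 to 46.1 CPM in T, and 5 of the 7 tested were called higher in T vs C. Of 6 tested erythroid markers, 4 were called higher in T vs C, and the sum of the 7 listed was 223 to 326 CPM in C and 471 to 525 CPM in T, without overlap. All 9 macrophage markers were higher in T vs C and 0 were called (75.1 to 143 CPM in C, 101 to 221 CPM in T), and all 8 Schwann cell markers were lower and 0 were called (462 to 1029 CPM in C, 323 to 660 CPM in T). The part of these cell types in the Ppargc1a values was not tested.

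**Figure D2:**
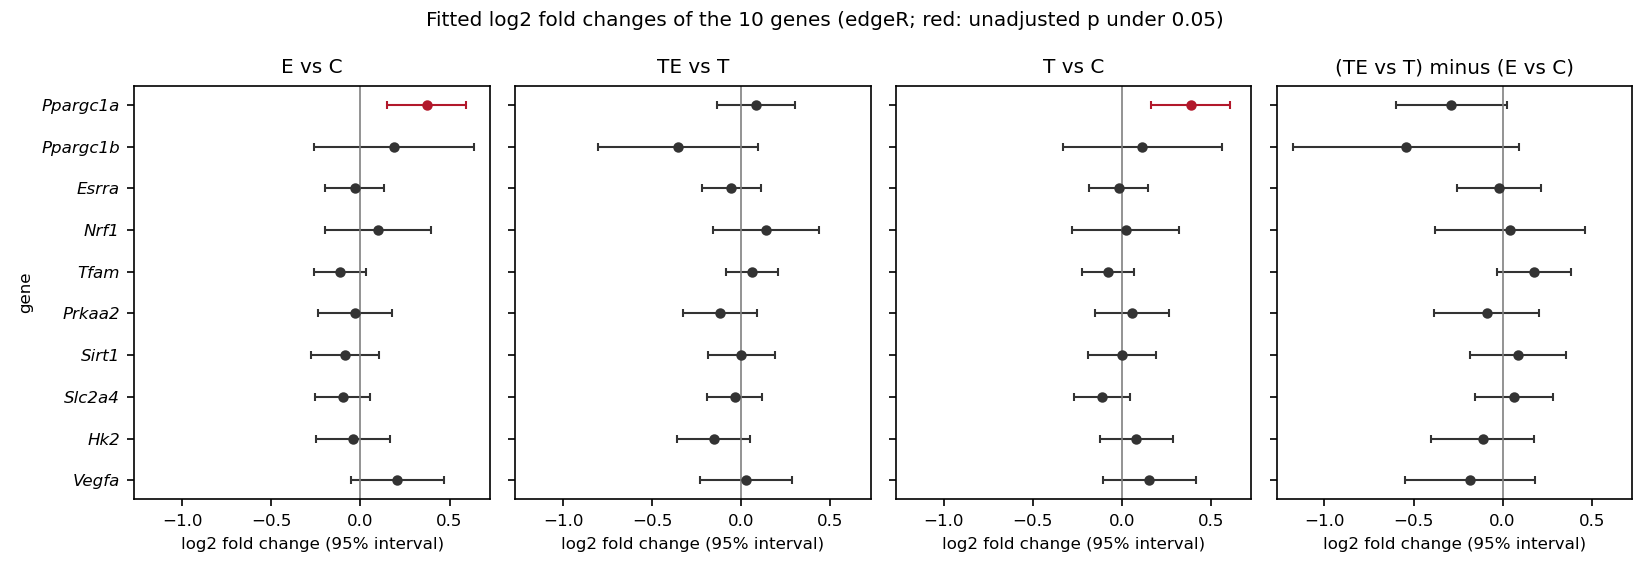
Fitted log2 fold changes (horizontal axes, with 95% intervals from edgeR) of the 10 genes in E vs C, TE vs T and T vs C and in the interaction, the TE vs T difference minus the E vs C difference. The interval of Ppargc1a lies above 0 in E vs C and T vs C (0.37 and 0.39), those of the other 9 genes include 0 in all 4 panels, and those of Ppargc1b are the widest.

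Ppargc1b, which encodes the second PGC-1 coactivator, was present at nearly the same level as Ppargc1a and varied far more between mice of a group. It had 1.36, 1.54, 2.78 and 2.48 FPKM in the C mice, 2.69, 1.66, 2.86 and 2.33 in the E mice, 1.81, 2.48, 2.37 and 2.01 in the T mice and 1.48, 1.76, 2.22 and 1.35 in the TE mice. All 4 groups overlapped, with means in the order E, T, C and TE (2.39, 2.17, 2.04 and 1.70 FPKM). The coefficient of variation of Ppargc1b within groups was 24.3%, against a median of 8.96% for the tested genes nearest in level, of which 94.8% varied less. The log2 fold change was 0.19 (SE 0.212) in E vs C and -0.36 (SE 0.213, adjusted p = 0.884 by edgeR) in TE vs T, and the difference between them was -0.54 (SE 0.301, unadjusted p of 0.0881, adjusted p = 0.594 by edgeR). Leaving out single mice moved the E vs C value between 0.05 and 0.36. A predicted gene, Gm46627, overlaps Ppargc1b on the opposite strand, and since the strand setting of the counting is not stated, their reads cannot be told apart.

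For the transcription factors that work with the coactivators, the groups overlapped in every comparison. Esrra (chr19:6888338-6899336), the receptor ERRα, had group means of 32.1, 32.1, 31.1 and 30.2 FPKM in C, E, T and TE, and its log2 fold changes lay between -0.05 and -0.02 in E vs C, TE vs T and T vs C. Its 95% interval in E vs C ran from -12.9% to 9.8%. Nrf1 (chr6:30047892-30153462), nuclear respiratory factor, was the least abundant of the 10 genes, at 0.760 ± 0.1001, 0.835 ± 0.148, 0.755 ± 0.122 and 0.842 ± 0.102 FPKM (SD, n = 4) in C, E, T and TE. Both trained groups had the higher mean, but the training difference of 0.12 (SE 0.1001) had an adjusted p of 0.692 by edgeR and was 0.07 without E replicate 4 and 0.17 without E replicate 2. Tfam (chr10:71061287-71074110) had 9.70 to 11.4 FPKM in C, 9.40 to 10.2 in E, 8.94 to 10.5 in T and 9.31 to 10.97 in TE. Its log2 fold change was -0.11 (SE 0.0697) in E vs C and 0.06 (SE 0.0698) in TE vs T, and the difference, 0.17 (SE 0.0986), had an unadjusted p of 0.0940 and an adjusted p of 0.603 by edgeR's quasi-likelihood test. Leaving out single mice moved the Tfam value between -0.16 (C replicate 2) and -0.07 (C replicate 4) in E vs C and between 0.01 (T replicate 3) and 0.10 (T replicate 4) in TE vs T. Trmt112 overlaps Esrra on the opposite strand.

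For the energy sensors too, differences between group means were within the spread between mice. Prkaa2 (chr4:104886845-104967102), the catalytic AMPK subunit α2 that prevails in muscle, had means of 37.5, 37.8, 38.3 and 35.6 FPKM in C, E, T and TE, with single E mice from 31.1 to 47.0. It stood well above its paralog Prkaa1, which encodes α1 and had 4.06 to 4.56 FPKM as group means. The log2 fold change of Prkaa2 was -0.03 (SE 0.0985) in E vs C and -0.12 (SE 0.0985) in TE vs T. Sirt1 (chr10:63154581-63217483), the NAD-dependent deacetylase that acts on PGC-1α, had the narrowest order of means, from 3.58 FPKM in C down to 3.46 FPKM in E. Its interval was -17.4% to 7.6% in E vs C and -12.3% to 14.3% in TE vs T. Herc4 overlaps Sirt1 on the opposite strand.

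Slc2a4 (chr11:69831006-69839070), which encodes the insulin- and contraction-responsive transporter GLUT4, was the most abundant of the 10 genes. It had 271, 263, 233 and 260 FPKM in the C mice, 254, 242, 241 and 249 in the E mice, 248, 251, 216 and 219 in the T mice and 233, 235, 228 and 225 in the TE mice. Group means were in the order C, E, T and TE, from 257 to 230 FPKM, with overlap between every pair of neighbours. The log2 fold change was -0.10 (SE 0.0741, adjusted p = 0.567 by edgeR) in E vs C, -0.11 (SE 0.0741, adjusted p = 0.533) in T vs C and -0.04 (SE 0.0741, adjusted p = 0.982) in TE vs T. The E vs C value of Slc2a4 was -0.05 without C replicate 1 and -0.16 without C replicate 3 (adjusted p = 0.849 and 0.337 by edgeR), and the T vs C value was -0.06 and -0.17. Ybx2 overlaps Slc2a4 on the opposite strand. The ubiquitous transporter gene Slc2a1 (GLUT1) stood at 3.99 ± 0.708 FPKM in C and 6.19 ± 0.599 FPKM in E without overlap. In CPM, 9.08% of tested genes did not overlap in E vs C. The log2 fold change of Slc2a1 was 0.60 (SE 0.169, adjusted p = 0.153 by edgeR). In T and TE it stood at 4.83 ± 1.03 and 4.51 ± 1.08 FPKM.

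Hk2 (chr6:82699740-82751469), the hexokinase that phosphorylates glucose in muscle, had 58.7, 61.6, 59.0 and 58.2 FPKM in the C mice and 59.2, 59.0, 62.6 and 56.1 in the E mice. It had 60.8, 74.8, 54.0 and 56.8 in the T mice and 59.0, 58.4, 59.4 and 46.8 in the TE mice. The C and E mice lay close together, and T replicate 2 and TE replicate 4 were the highest and the lowest of all 16. The log2 fold change was -0.04 (SE 0.0977) in E vs C, 0.08 (SE 0.0977) in T vs C and -0.15 (SE 0.0978, adjusted p = 0.896 by edgeR) in TE vs T. Without T replicate 2 the T vs C value was -0.03 and the TE vs T value -0.04. Hk1, the hexokinase of most other tissues, had group means of 3.61 to 4.25 FPKM.

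Vegfa (chr17:46327919-46343309), the main ligand of capillary growth, was the second gene after Ppargc1a by its fitted difference in both E vs C and T vs C. It had 36.2, 35.0, 37.2 and 34.2 FPKM in the C mice, 40.8, 49.5, 32.9 and 45.6 in the E mice, 41.4, 34.0, 40.8 and 39.7 in the T mice and 42.6, 42.2, 43.3 and 32.0 in the TE mice. In each of the E, T and TE groups 3 of 4 mice were above all C mice and 1 was below them all in FPKM, whereas in CPM the lowest T mouse, replicate 2, was inside the C range. The log2 fold change was 0.21 (SE 0.123, unadjusted p of 0.1101, adjusted p = 0.460 by edgeR) in E vs C, 0.15 (SE 0.123, adjusted p = 0.605) in T vs C and 0.03 (SE 0.123, adjusted p = 0.995) in TE vs T. The E vs C value was 0.12 without E replicate 2 and 0.31 without E replicate 3 (adjusted p = 0.775 and 0.310 by edgeR). Its relative Vegfb was more abundant, at 71.6 to 73.4 FPKM as group means.

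Vegfa was the gene of the other 9 whose level went most closely with that of Ppargc1a from mouse to mouse. Over the 16 libraries, Pearson's r of their log2 CPM was 0.66 (Spearman's rho 0.70), and 1.29% of tested genes had a higher r with Ppargc1a. Without the 2 libraries farthest from the Ppargc1a median, C replicates 4 and 2, r was 0.61. For deviations from the group means, r was 0.65, and without TE replicate 4, a check chosen after seeing the data, it was 0.39, so a large part of the likeness within groups rested on that library. Hk2 had r = 0.27 with Ppargc1a over all libraries and 0.62 within groups, which was 0.28 without TE replicate 4. The other 7 genes had r between -0.32 for Slc2a4 and 0.08 for Prkaa2. Between other members, the highest values were 0.58 for Ppargc1b and Prkaa2 and 0.55 for Slc2a4 and Hk2.

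**Figure D3:**
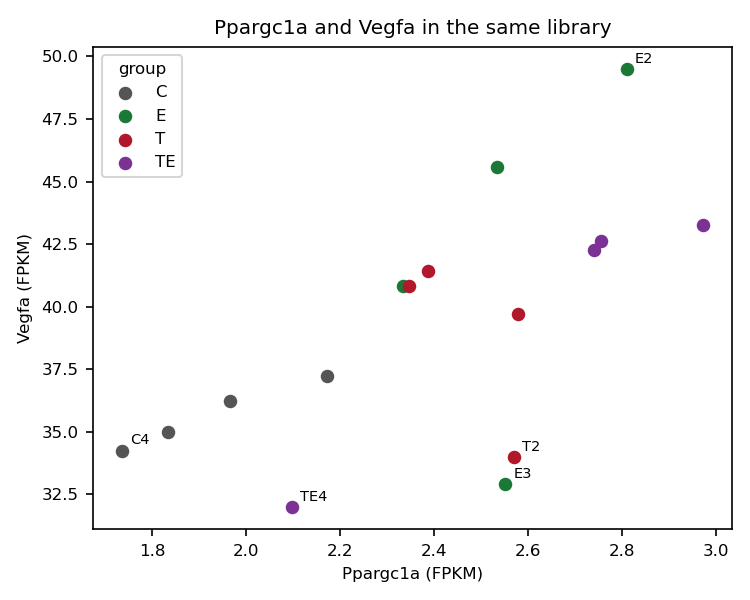
Vegfa FPKM (vertical axis) against Ppargc1a FPKM (horizontal axis) in the 16 libraries, coloured by group and with 5 libraries named; axes do not start at 0. The C mice lie at the lower left (Ppargc1a 1.74 to 2.17), E replicate 2 is highest in Vegfa (49.5), and E replicate 3, T replicate 2 and TE replicate 4 are the mice with 32.0 to 34.0 FPKM of Vegfa.

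Over all tested genes, those with the pattern most like Ppargc1a were Ncoa1 (r = 0.87), Spag1 (0.86), Eif3a (0.86), Arhgef37 (0.84) and Ralgapb (0.84), over 16 libraries. Ncoa1, a steroid receptor coactivator, had 36.7 ± 2.21 CPM in C, 42.0 ± 2.29 in E, 41.8 ± 1.07 in T and 42.2 ± 6.24 in TE (SD, n = 4). Its r within groups was 0.82, and 0.53 without TE replicate 4. None of the 5 was called in E vs C or T vs C, where their adjusted p by edgeR was 0.0933 or more.

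Around Ppargc1a, 29 nuclear receptors and coregulators of the PGC-1 family were tested, and 0 passed an adjusted p of 0.05 in any comparison. In E vs C 23 of the 29 were higher (median log2 fold change 0.10, against 0.0033 for all genes) and in T vs C 24 were higher (median 0.11 against -0.0012), while in TE vs T 21 were lower (median -0.04 against 0.0014). At an unadjusted p under 0.05 there were 6, 9 and 3 of the 29 genes, beside 14.2%, 14.2% and 5.88% of all tested genes. Esrrg, the ERRγ receptor of oxidative fibers, had 1.56 ± 0.247, 1.98 ± 0.346, 2.30 ± 0.314 and 1.67 ± 0.293 FPKM in C, E, T and TE. Its log2 fold change was 0.58 (SE 0.147, adjusted p = 0.0776 by edgeR) in T vs C and -0.47 (SE 0.147, adjusted p = 0.693) in TE vs T. The difference of the training effects on Esrrg was -0.78 (SE 0.208, unadjusted p of 0.00150, adjusted p = 0.420 by edgeR). Esrrb had 1.71 to 2.14 FPKM and Pprc1, the third family member, 2.13 to 2.38 FPKM as group means. Prmt1, an arginine methyltransferase that modifies PGC-1α, had the smallest p of the list for training (log2 difference -0.21, SE 0.0489, adjusted p = 0.166 by edgeR), and Nrip1, the corepressor RIP140, for the tumor (0.33, SE 0.128, adjusted p = 0.241 by edgeR).

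Of 24 genes that signal towards Ppargc1a, 1 was called, Nos1 in T vs C, where 0.678% of all tested genes were called. Nos1, the neuronal nitric oxide synthase of muscle, had 3.81 ± 0.195 FPKM in C, 5.04 ± 0.144 in E, 4.95 ± 0.758 in T and 4.44 ± 0.101 in TE. It rose in T vs C by a log2 fold change of 0.40 (SE 0.0812, adjusted p = 0.0335 by edgeR), and the value in E vs C was 0.37 (SE 0.0811, adjusted p = 0.0867). In a fit of only the C and T mice the adjusted p of Nos1 was 0.147, and it was also above 0.05 without any 1 of the 4 C mice or without T replicate 3, reaching 0.139. With limma on the FPKM scale it was 0.0794 to 0.106. The interaction for Nos1 was -0.54 (SE 0.115, unadjusted p of 0.000210, adjusted p = 0.389 by edgeR). The median log2 fold change of the list was -0.02 in E vs C and 0.04 in T vs C.

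Most genes of oxidative metabolism that PGC-1 and ERR are known to drive had lower, not higher, values in E than in C mice, and none of these passed the test. Of 27 tested oxidative metabolism targets of PGC-1 and ERR, 23 were lower in E vs C (median log2 fold change -0.12 against 0.0033 for all genes) and 23 were lower with training over both tumor states (median -0.08 against 0.0052), with 0 called in either. In T vs C 12 were higher and 15 lower (median -0.0042). Fabp3, the fatty acid-binding protein of heart and slow muscle, had 1127 ± 109 FPKM in C and 824 ± 103 FPKM in E (log2 fold change -0.49, SE 0.125, adjusted p = 0.134 by edgeR), and 1106 ± 183 and 961 ± 148 FPKM in T and TE. Mb, which encodes myoglobin, had the smallest p of the list for the tumor (0.14, SE 0.0590, adjusted p = 0.295 by edgeR). Of 18 genes for the expression and copying of mitochondrial DNA, 14 were lower in E vs C and 12 in TE vs T, with medians of -0.07 and -0.04 and 0 called. Lonp1, the matrix protease, had the smallest p for training (-0.10, adjusted p = 0.447 by edgeR), and Polg, the mitochondrial DNA polymerase, for the tumor (0.10, adjusted p = 0.273 by edgeR). Slow fibers are rich in mitochondria, and the summed slow myofiber markers were 1010 to 2486 CPM in C and 1178 to 1804 CPM in E, with 9 of 10 lower in E vs C and 0 called. Their part in these lists was not tested.

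Of 26 AMPK subunits, kinases and substrates, 0 were called in any comparison, 15 were higher in E vs C, 19 in T vs C and 8 in TE vs T, with medians of 0.05, 0.13 and -0.07. Acaca, the acetyl-CoA carboxylase of lipid synthesis, had the smallest p for training (0.62, SE 0.208, adjusted p = 0.347 by edgeR). It is abundant in fat tissue, and the part of adipocytes, whose marker sums are given above, was not tested. Cab39, a partner of the AMPK kinase LKB1, had the smallest p for the tumor (0.22, adjusted p = 0.142 by edgeR). Of 23 tested genes of glucose transport and phosphorylation 0 were called, and 12, 16 and 8 were higher in E vs C, T vs C and TE vs T. Txnip, an inhibitor of glucose uptake, had a training difference of -0.37 (SE 0.124, adjusted p = 0.345 by edgeR), and Snap23, a fusion protein of GLUT4 vesicles, a tumor difference of 0.13 (adjusted p = 0.205 by edgeR). Of 21 sirtuins and genes of NAD metabolism 0 were called, and 14 were lower in E vs C and 13 in TE vs T. Naprt had the smallest p for training (-0.26, adjusted p = 0.347 by edgeR) and Nnt, the mitochondrial transhydrogenase, for the tumor (0.24, adjusted p = 0.0682 by edgeR), and Sirt3 had group means of 11.9 to 12.8 FPKM.

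In the VEGF and hypoxia pathway 3 genes changed with the tumor, while the ligand Vegfa did not pass the test. Among all tested genes T vs C called 0.515% higher and 0.163% lower, and for this list 0 and 1. Of its 25 genes, 3 fell with the tumor averaged over both training states and 0 rose, against 0.624% and 0.739% of all tested genes, and 14 of the 25 had a positive log2 difference (median 0.04). Kdr, the main signalling receptor of VEGF-A, had 15.8 ± 2.53 FPKM in C, 19.7 ± 0.947 in E, 9.68 ± 1.47 in T and 11.8 ± 3.02 in TE. Its tumor difference was -0.69 (SE 0.105, adjusted p = 0.00233 by edgeR). In T vs C alone Kdr fell by 0.68 on the log2 scale (SE 0.149, adjusted p = 0.0457 by edgeR). That call was lost, with adjusted p up to 0.153, without C replicate 2, 3 or 4, T replicate 1, 2 or 3, any 1 of the 4 E mice or TE replicate 3. It was also lost with the replicate number as a block (0.0615), in a fit of the C and T mice alone, in a robust fit (0.0646) and with limma on the FPKM scale (0.0649 to 0.0896). Angpt2, which destabilises vessels so that they can sprout, had 2.15 ± 0.491, 2.59 ± 0.615, 1.16 ± 0.416 and 1.31 ± 0.164 FPKM in C, E, T and TE, and a tumor difference of -0.90 (SE 0.161, adjusted p = 0.00728 by edgeR). Apln, which encodes the vascular peptide apelin, had 1.43 ± 0.750, 0.936 ± 0.282, 0.379 ± 0.291 and 0.255 ± 0.158 FPKM and a tumor difference of -1.85 (SE 0.392, adjusted p = 0.0231 by edgeR). The Apln call was lost without C replicate 3 or 4, E replicate 1 or TE replicate 3 (adjusted p up to 0.0606), and with the replicate number as a block (0.0509). With limma on log2(FPKM + 1) the Apln difference was -0.70. The tumor calls for Kdr and Angpt2 held in every alternative run, with adjusted p up to 0.00750 and 0.0222, and with limma on log2(FPKM + 1) the Angpt2 difference was -0.59. Beside them, the summed level of 12 endothelial markers was 845 to 1002 CPM in C, 969 to 1068 in E, 857 to 1199 in T and 875 to 1032 in TE, with 8 of 12 lower with the tumor and 1, Emcn, called (-0.40, adjusted p = 0.0189 by edgeR). With training, 0 of the 25 genes were called, and Kdr had the smallest p (0.27, SE 0.105, adjusted p = 0.375 by edgeR).

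Genes of the acute exercise response, which peak within hours of a run, were also read, since the time of sampling after the last run is not given in the sources used here. Of 15 genes 0 were called, with medians of 0.14 in E vs C, 0.32 in T vs C and -0.20 in TE vs T. Nr4a3, the orphan receptor that responds strongly to a bout of exercise, had 0.545 ± 0.304 FPKM in C, 1.62 ± 1.18 in E, 0.857 ± 0.518 in T and 1.32 ± 0.869 in TE, and a training difference of 1.07 (SE 0.435, adjusted p = 0.390 by edgeR). Sik1, a kinase induced by cyclic AMP, had a tumor difference of 1.04 (SE 0.314, adjusted p = 0.124 by edgeR).

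**Figure D4:**
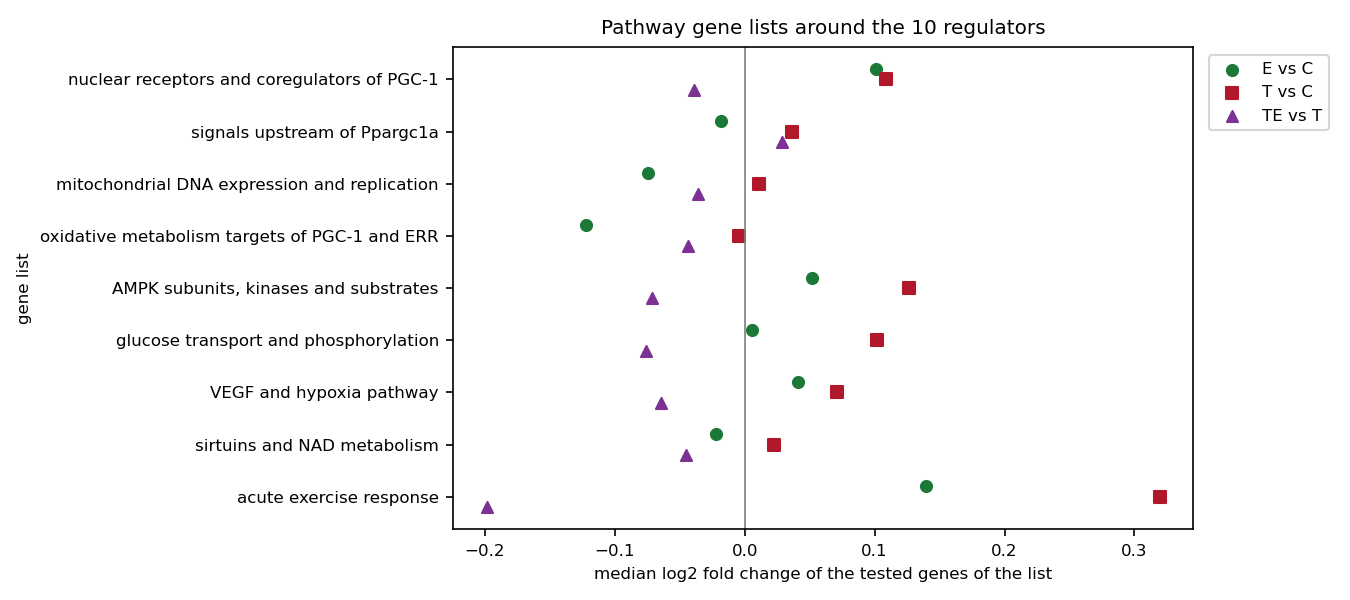
Median log2 fold change (horizontal axis) of the tested genes of 9 pathway lists (vertical axis) in E vs C (circles), T vs C (squares) and TE vs T (triangles). Oxidative targets have the lowest E vs C median (-0.12) and the acute exercise response the highest T vs C median (0.32). E vs C and T vs C share the C mice, and T vs C and TE vs T share the T mice.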

How the data were processed

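PolyA RNA of 16 gastrocnemius samples was sequenced, 4 mice per group, and groups and replicate numbers came from the labels. Per the submitters' processing notes and the paper's methods, reads were trimmed with fastp 0.20.1, aligned to GRCm39 with HISAT2 2.1.0 and counted per gene with HTSeq 0.11.2, and the authors deposited these raw counts. They also deposited FPKM, which equal the counts divided by summed counts and by a constant for each gene (largest relative deviation 4.44e-16 over 16037 genes). That constant was derived from the same values and is read as gene length, without a check against annotated lengths. The annotation release and strand setting are not given in the sources used here. The kit version differs between labels and paper, and 0 columns belonged to other samples. Totals of 35628211 to 37635741 counts make 3 counts worth at most 0.0875 CPM. These limits cover counting error only, since PCR copies were not marked.

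Counts were tested with edgeR 4.0.16 in R 4.3.3 (filterByExpr, TMM factors 0.947 to 1.05, glmQLFit and glmQLFTest over all 16 libraries, 1 coefficient per group), with Benjamini-Hochberg adjustment over the 14749 tested genes in each contrast and a threshold of 0.05. Levels were compared between genes only in FPKM, and log2 CPM used a prior count of 2. The test scripts were first run on simulated data with known changes. No pair of replicates was a repeated library (chi-square per degree of freedom 13.4 to 65.8). Alternatives were DESeq2 1.42.0, its size factors, no filter, a fit of the compared groups alone, a block for the replicate number, a robust fit, the unadjusted p, a fold change above 2, limma 3.58.1 on log2(FPKM + 1) and log2(FPKM + 0.1), a mean FPKM of at least 1, and each library left out. Plots were made in Python 3.11.15 (matplotlib 3.10.9).

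The members and gene lists were chosen with earlier results of these data known. Named were the 10 members, the 5 tested genes most correlated with Ppargc1a, for each pathway list its called genes or else those with the smallest p for training and for the tumor, 8 close paralogs, and marker genes. Fabp3 and Esrrg in single comparisons, and Emcn, are named under the same lists. Gene positions are those of GENCODE for GRCm39.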

Additional observations from a re-analysis of the deposited data

Results flagged for a closer look

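Within groups of 4 mice, 3 of the 40 combinations of gene and group had a mouse that stood apart from the other 3 by Dixon's criterion, all in the TE group, and chance flags about 1 in 20 groups. Hk2 was 46.8 FPKM in TE replicate 4 and 58.4 to 59.4 FPKM in the others. Vegfa was 32.0 FPKM in the same mouse and 42.2 to 43.3 FPKM in the others. Sirt1 was 3.03 FPKM in TE replicate 2 and 3.68 to 3.798 FPKM in the others. TE replicate 4 was the lowest TE mouse for 7 of the 10 genes, namely Hk2, Vegfa, Ppargc1a (2.097 FPKM), Ppargc1b (1.35 FPKM), Esrra, Prkaa2 and Slc2a4. In FPKM it was the highest TE mouse for the remaining genes, Nrf1 (0.956), Tfam (10.97) and Sirt1 (3.798). It had the highest TE sums of lymphocyte (67.6 CPM), erythroid (785 CPM), macrophage (185 CPM) and neutrophil markers (19.7 CPM) and the lowest of myofiber markers (139630 CPM). The part of those cells in its low and high values was not tested.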

How the results depend on the processing

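Of 1464 alternative values for the 10 genes in 6 comparisons, 1387 kept direction and side of the threshold, 3 passed it (Ppargc1a) and 74 reversed. The number of genes called moved from 0 to 1, each time Ppargc1a, with the unadjusted p in E vs C, T vs C, training and tumor, with DESeq2 in T vs C, and from 0 to 1 over the libraries left out in T vs C and tumor (TE replicate 4). No other count of the 10 moved. In the fits that called Ppargc1a, 3.01% of all genes were called in T vs C with DESeq2, and without TE replicate 4 these were 0.803% in T vs C and 1.21% for the tumor. Of the 60 values, leaving out 1 library turned the sign of 22 and moved another 29 by over 1.5 times.

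Reversals came only in values of at most 0.12 in size. On the FPKM scale (limma, pseudocounts 1 and 0.1; the fit with a mean FPKM of at least 1 gave the values of pseudocount 1 and left out Nrf1), these were Esrra in E vs C (0.00343 and 0.00356), Prkaa2 in E vs C (0.000794 and 0.000613), Tfam for training (0.000708 and 0.000869), Nrf1 in T vs C (-0.00481 and -0.0121), and for the tumor Tfam (-0.0256 and -0.0279), Prkaa2 (-0.0168 and -0.0170) and Hk2 (-0.0231 and -0.0236). The cause was not tested.

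The log2 fold changes that turned sign when a library was left out had the following lowest and highest values. In E vs C the ranges were -0.0704 to 0.0258 for Esrra, -0.0117 to 0.20 for Nrf1, -0.14 to 0.0484 for Prkaa2. In TE vs T the ranges were -0.0912 to 0.00174 for Esrra, -0.0826 to 0.0131 for Slc2a4, -0.0298 to 0.14 for Vegfa, -0.0491 to 0.0679 for Sirt1. In training over both tumor states the ranges were -0.17 to 0.00596 for Ppargc1b. In T vs C the ranges were -0.0239 to 0.29 for Ppargc1b, -0.0712 to 0.0268 for Esrra, -0.0789 to 0.0975 for Nrf1, -0.0066 to 0.12 for Prkaa2, -0.0267 to 0.15 for Hk2, -0.0577 to 0.0527 for Sirt1. In tumor over both training states the ranges were -0.0104 to 0.0974 for Nrf1, -0.0108 to 0.0361 for Tfam, -0.0268 to 0.0652 for Prkaa2, -0.0264 to 0.0706 for Hk2. In the interaction the ranges were -0.0758 to 0.0364 for Esrra, -0.0587 to 0.16 for Nrf1, -0.16 to 0.0288 for Prkaa2, -0.18 to 0.000535 for Hk2.

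Replicate numbers stand for different mice, and same-numbered samples did not deviate together (correlations -0.241 to 0.214, 5 of 16 libraries most alike their own number). With the replicate number as a block 0 of the 10 genes were called in any comparison, and Ppargc1a in T vs C was 0.39 (adjusted p = 0.103 by edgeR). The block ended 2 calls outside the 10 genes, Kdr in T vs C (adjusted p = 0.0615 by edgeR) and Apln for the tumor (0.0509).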
